A study of Mus musculus with 12 samples.

Results

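The complement and lectin pathway genes described here are 28 genes of the complement cascade found by name among the 11289 genes of the liver expression table, out of 31 names listed for the system. No row carried the names C1s, Cfd or C3ar1. By role, the 28 genes comprise 7 recognition molecules, 3 initiating proteases, 5 convertase components, 6 members of the terminal pathway, 6 regulators and 1 receptor. Liver RNA of 12 C57BL/6J mice aged 8 to 10 weeks was sequenced, with 4 mice in each of 3 groups. Ctrl mice were labelled as controls, and the labels do not say whether they were injected. Con A mice received 15 mg/kg of concanavalin A, a lectin from jack beans whose injection sets off T cells and hepatitis, through the tail vein and PBS intravenously 30 min later. Con A + MSCs mice received the same Con A followed by 2000000 human umbilical cord mesenchymal stromal cells in 200 µL of PBS, so human cells were given to mice with their own immune system. These details are those of the labels, whereas the paper gives fewer cells, from Wharton's jelly of the cord, and younger mice. Livers were taken at 24 h.

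Complement is a cascade of plasma proteins, most of them secreted by hepatocytes, that marks and lyses targets and calls in leukocytes. C1q, which binds antibody and dying cells, opens the classical pathway, while mannose-binding lectins, collectins and ficolins bind sugars and open the lectin pathway through the MASP proteases. Both pathways cleave C4 and C2 to form an enzyme that cleaves C3, factor B and properdin amplify that step in the alternative pathway, and C5 to C9 then assemble the membrane attack complex, which is held back on host cells by regulators such as CD59 and CD55.

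Each gene had 1 whole number per mouse. The deposited table is named as counts, but the totals of the mice lay between 17649654 and 17657159 and the median (352), upper quartile (830) and largest value were the same in every mouse, so the values were taken as scores already normalised between mice. Sequencing depth is therefore unknown and no counting error is given. The scale with respect to transcript length is not stated, so levels of different genes are not compared. The table lists 1 transcript for each gene, and whether a value covers the gene or that transcript is not stated. For 23 of the 28 genes that transcript is protein-coding in GENCODE M21, while it is a retained-intron transcript for C4b and Vtn, one marked for nonsense-mediated decay for Mbl1 and Clu, and a processed transcript for C8a. In every mouse the highest genes shared their values in bands of 10 genes, with 341028 for the top band and 147377 to 148316 for the next, and 6 of the 28 genes lay in the 12 highest bands in some mice. Such genes move in steps. Lower bands were not examined, but values recurred below the 12 as well, such as 8862 and 10305 in both C8a and Cfi and 12175 in Hc. Changes of such genes may also hold steps. Hepatocyte identity of the tissue was plain, with 9 of 10 hepatocyte markers in the table and Alb at 341028 in all 12 mice. Con A replicate 4 stood somewhat apart, with a mean correlation of 0.943 to the other mice of its group against 0.960 to 0.972 for the other mice, and it had the lowest value of its group for 21 of the 28 genes. Con A + MSCs replicate 4 was the lowest of its group for 16 genes, and replicate 2 was the highest for 19 genes in Con A and 18 in Con A + MSCs. The labels tie each sample to 1 liver and name no batch.

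Among these 28 genes, more were lower than higher 24 h after Con A, while a further list of complement genes, given at the end, moved in both directions. Compared with Ctrl, 16 of the 28 genes fell and 2 rose, by limma on log2(value + 1) with a Benjamini-Hochberg adjusted p below 0.05 over all genes and a fold change above 1.5. Over all genes 38.8% were called, 19.2% down and 19.5% up, whereas 64.3% of the complement genes were called. Colec11, Fcna, Cfp and the C1q chains lost most of their signal, whereas factor B (Cfb) and the C5a receptor (C5ar1) rose. The median log2 change of the 28 genes was -0.96, against 0.05 for all genes. The 2 groups did not overlap for 17 of the 28 genes, 14 of them lower and 3 higher after Con A, while 50.4% of all genes separated in this way (23.4% lower and 27.1% higher). Without Con A replicate 4, 15 genes fell and 3 rose. Since the table holds only genes that reached 64 in at least 2 mice, a gene that reached it only where it is high had to differ. This applies to Colec11, which needed its Ctrl mice to enter the table, and to C5ar1, which needed the Con A groups, and the other 26 genes passed both in Ctrl alone and in the Con A groups alone.

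Few of these genes were called between the Con A + MSCs and Con A groups. Colec11, Masp2 and Cd59a were higher with the cells and 0 were lower by limma. These 3 are 10.7% of the 28 genes, where 8.58% of all genes were called, 4.2% up and 4.38% down. The Con A + MSCs mice lay above all Con A mice in 5 of the 28 genes and below them in 0, against 23.5% of all genes separated (11.9% above and 11.6% below). In 23 of the 28 genes the log2 change was positive, with a median of 0.32 against 0.00 for all genes. These 3 calls depended on single mice. Without Con A replicate 1, Con A replicate 4, Con A + MSCs replicate 2 or Con A + MSCs replicate 3, 0 of the 28 genes were called, without Con A replicate 3 or Con A + MSCs replicate 1 there was 1, and without Con A replicate 2 there were 7. In the same limma fit 9 of the 28 genes had an unadjusted p below 0.05, all of them higher with the cells, where 34.6% of all genes had such a p, 18% higher and 16.6% lower. Both comparisons use the same Con A mice, so the values of 1 comparison are not independent of those of the other.

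**Figure D1:**
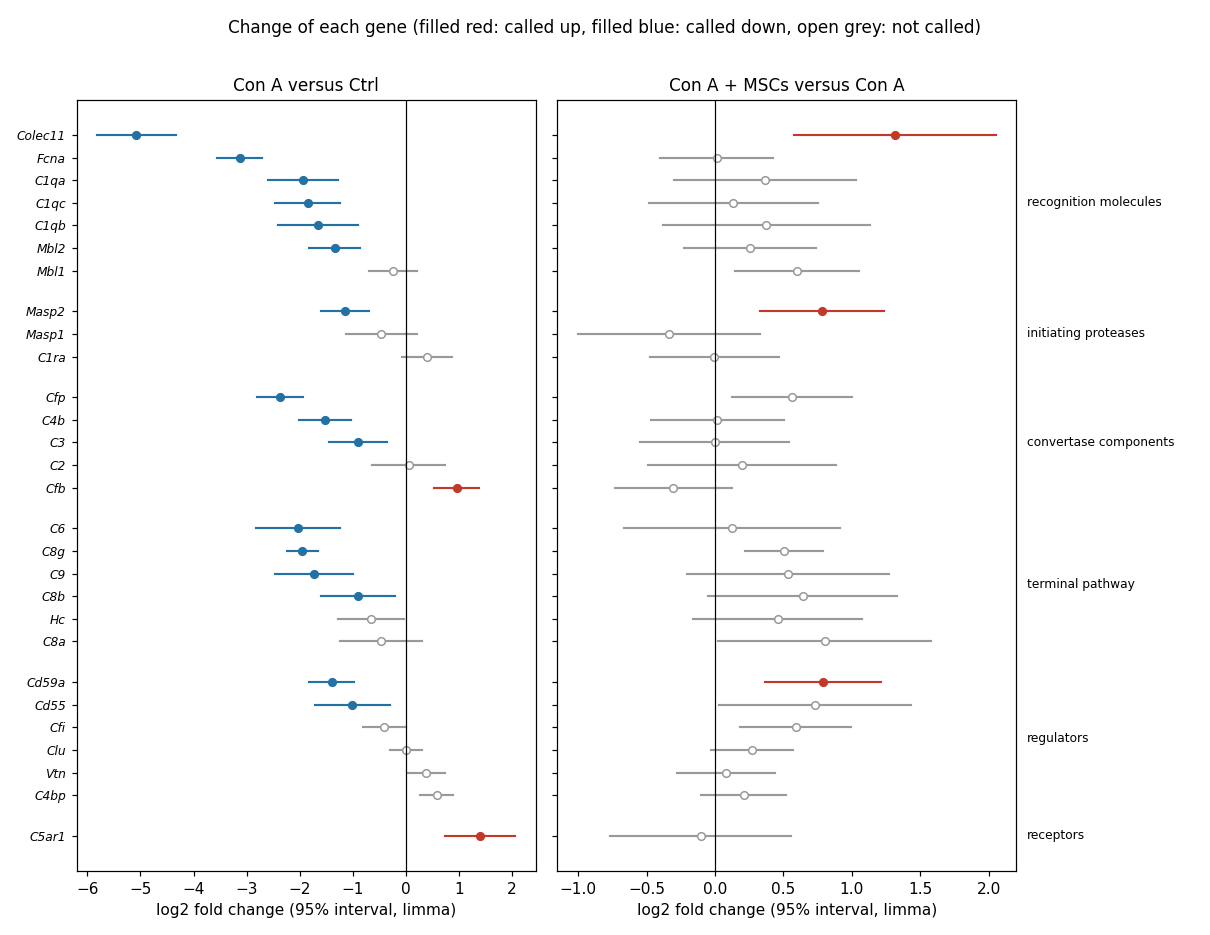
Log2 fold change of each of the 28 complement and lectin pathway genes (x axis, points with 95% intervals from limma) after Con A versus Ctrl (left) and in Con A + MSCs versus Con A (right), ordered by role from recognition molecules at the top to the receptor at the bottom; the 2 panels have different x scales. Filled points are called genes, 16 down (blue) and 2 up (red) on the left and 3 up on the right.

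Promoter sequence is shown for the 3 genes that were higher with the cells and for 1 chain of C1q, around the letters of elements known from interferon and myeloid genes. RefSeq promoters (GRCm38.p6) were at hand for 21 of the 28 genes, as 22 promoters, and the 250 bases before each start were searched on both strands. The letters were GAAANNGAA (the core of the interferon-stimulated response element, ISRE), TTCNNNGAA (the gamma-activated site bound by STAT dimers, GAS), GAGGAAGT (an ETS/PU.1 element of myeloid genes) and TTGCNNAA (C/EBP, a factor of the acute phase). Capitals mark the match, and each sequence is read 5′ to 3′ on the strand of its gene. Distances are bases before the start.
Colec11, chr12:28623526-28623580, minus strand, with a GAS match at 250 to 242 and an overlapping ISRE match at 244 to 236: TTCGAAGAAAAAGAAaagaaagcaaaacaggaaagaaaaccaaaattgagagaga
Cd59a, chr2:104095574-104095662, plus strand, with an ISRE match at 187 to 179: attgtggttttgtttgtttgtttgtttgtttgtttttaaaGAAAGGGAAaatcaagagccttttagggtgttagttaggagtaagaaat
Masp2, chr4:148602451-148602539, plus strand, with a GAS match at 53 to 45: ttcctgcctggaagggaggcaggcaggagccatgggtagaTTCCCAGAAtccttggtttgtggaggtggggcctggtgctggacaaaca
C1qc, chr4:136893062-136893149, minus strand, with an ETS/PU.1 match on the opposite strand at 195 to 188: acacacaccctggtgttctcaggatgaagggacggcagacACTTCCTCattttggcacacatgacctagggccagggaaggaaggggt
Of all 32851 mouse promoters of this length, 7.13% hold the ISRE core letters, 7.02% the GAS letters, 2.44% the ETS/PU.1 letters and 9.56% the C/EBP letters. Among the complement genes searched, the ISRE core letters were found for Colec11, Cd59a and C5ar1, the GAS letters for Colec11, Masp2 and C8a, the ETS/PU.1 letters for C1qc and the C/EBP letters for C3 and C9. These matches describe letters and not binding. No promoter was at hand for C1qa, Masp1, C2, C4b, Cfb, Cfi and Clu.

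Among the recognition molecules 6 of 7 fell after Con A, where 19.2% of all genes were called down. The largest change was that of Colec11, a sugar-binding collectin that recruits MASP proteases. Colec11 (12:28594173-28623290 in mm10, minus strand, the span of the transcript that the table lists) stood at 562, 427, 382 and 490 in Ctrl replicates 1 to 4, at 14, 12, 11 and 14 in Con A and at 20, 76, 35 and 22 in Con A + MSCs. No value of 1 group reached into another. With entry to the table resting on the Ctrl mice, the fall after Con A was 33.7-fold (log2 change -5.08, SE 0.34, adjusted p = 4.34e-07). With the cells Colec11 was 2.49-fold above Con A (log2 change 1.31, SE 0.34, adjusted p = 0.0326), still 13.6-fold below Ctrl. That rise rested on few mice. It was 0.92 on the log2 scale without Con A + MSCs replicate 2, at an adjusted p of 0.0747, and the adjusted p was 0.0808 without Con A replicate 1, 0.0617 without Con A replicate 3, 0.0594 without Con A replicate 4 and 0.0804 without Con A + MSCs replicate 3. It also missed the threshold after quantile normalisation (adjusted p = 0.0614) and when only the 8 mice of the pair of groups were fitted (adjusted p = 0.0739).

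Ficolin A, encoded by Fcna, also starts the lectin pathway. Fcna was at 724, 548, 496 and 586 in Ctrl, at 72, 80, 58 and 55 in Con A and at 74, 68, 82 and 46 in Con A + MSCs. It fell 8.78-fold after Con A (log2 change -3.13, SE 0.19, adjusted p = 2.13e-07), and both Con A groups occupied the same low range. Between them the log2 difference was 0.01 with a 95% interval of -0.40 to 0.43.

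Both mannose-binding lectins, Mbl1 and Mbl2, are plasma collectins of the hepatocyte, and of the pair Mbl2 was called after Con A. Mbl2 was at 6796, 7164, 8278 and 5783 in Ctrl, at 3144, 3378, 3065 and 1724 in Con A and at 3881, 3338, 3765 and 2333 in Con A + MSCs. Its fall after Con A was 2.54-fold (log2 change -1.34, SE 0.22, adjusted p = 0.000293) with no overlap. Mbl1 was at 2805, 2630, 3386 and 2209 in Ctrl and at 2366, 2922, 2886 and 1418 in Con A, which overlap (log2 change -0.24, SE 0.21, adjusted p = 0.342). In Con A + MSCs it was at 3216, 3784, 3624 and 3386, above every Con A mouse, with a log2 change of 0.60 (SE 0.21) and an adjusted p of 0.0682, so that it was not called. Its log2 change was 0.71 without Con A replicate 2 (adjusted p = 0.0413) and 0.37 without Con A replicate 4 (adjusted p = 0.126).

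The 3 chains of C1q lie side by side on chromosome 4 (136880129 to 136898803 in mm10, minus strand) and assemble into 1 molecule, which in tissues is made mostly by macrophages. C1qa was at 996, 1232, 864 and 953 in Ctrl, at 228, 415, 245 and 200 in Con A and at 390, 490, 408 and 164 in Con A + MSCs. C1qb was at 752, 921, 705 and 817, at 194, 404, 238 and 212 and at 430, 468, 416 and 134 in the same order. C1qc was at 775, 1138, 666 and 856, at 173, 339, 268 and 186 and at 288, 381, 262 and 148. All 3 chains were lower in every Con A mouse than in any Ctrl mouse. The falls were 3.83-fold for C1qa (log2 change -1.94, SE 0.31, adjusted p = 0.00022), 3.16-fold for C1qb (-1.66, SE 0.35, adjusted p = 0.00158) and 3.61-fold for C1qc (-1.85, SE 0.28, adjusted p = 0.000173). With the cells, log2 changes against Con A were 0.36, 0.38 and 0.13, none of them called, and Con A + MSCs replicate 4 had the lowest value of its group for each chain. The change of C1qb was 0.80 without that mouse (adjusted p = 0.0323) and 0.20 without Con A + MSCs replicate 2 (adjusted p = 0.753).

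Most macrophage markers fell after Con A, as did the C1q chains. Of 9 genes listed for Kupffer cells and macrophages, 8 were in the table, and 7 of them fell after Con A and 1 (Cd68) rose. Their summed value was 4260 to 6820 in Ctrl, 1654 to 2125 in Con A and 902 to 2189 in Con A + MSCs, where replicate 4 was again the lowest. That sum includes Cd68, with means of 124.5 in Ctrl, 911.5 in Con A and 480 in Con A + MSCs. The other 7 together therefore fell more than the sum, whose fall is not to be matched with that of the C1q chains. Clec4f, a lectin particular to Kupffer cells, had a mean of 1526 in Ctrl and 51.5 in Con A. Of 8 endothelial markers of the sinusoids 6 fell and 1 rose (sums of 3220 to 4569 in Ctrl, 1473 to 2109 in Con A and 1911 to 2540 in Con A + MSCs), and of 8 hepatic stellate cell markers 4 fell (5507 to 8383, 6250 to 7280 and 4668 to 9829). Timd4 of the macrophage list and Clec4g of the endothelial list are in the table only through Ctrl. No marker of these 3 lists was at 0 in any mouse. Their part in the falls of the recognition molecules was not tested. In RNA of whole liver, fewer cells of a type and less RNA per cell cannot be told apart.

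**Figure D2:**
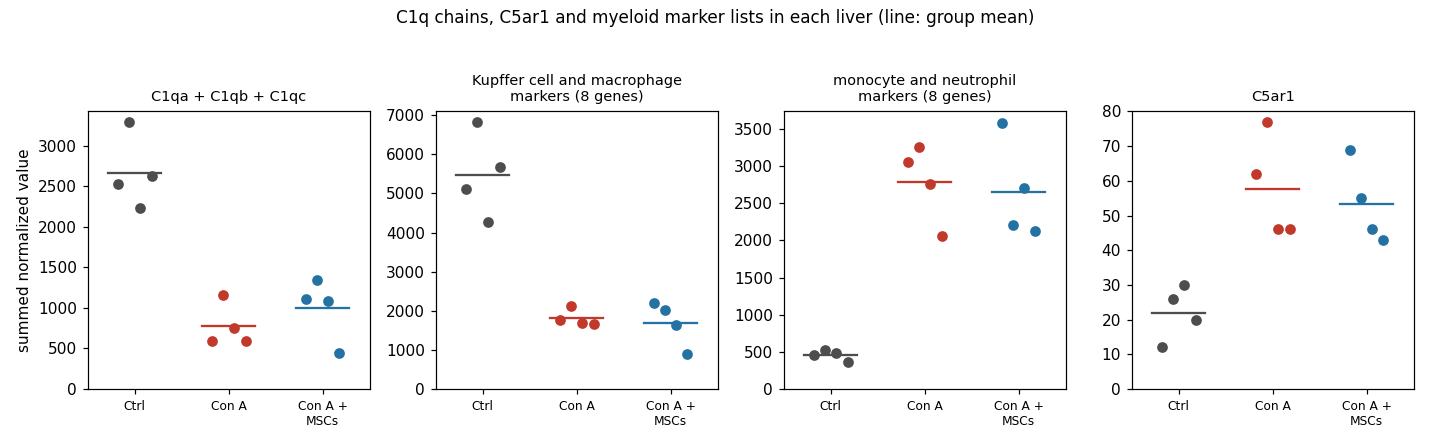
Summed value of the C1q chains, of 8 Kupffer cell and macrophage markers and of 8 monocyte and neutrophil markers, and the value of C5ar1 (y axes, normalised value, each from 0), in each of 4 mice per group (points) with the group mean (line). The C1q chains and the summed macrophage markers, which include the rising Cd68, are highest in all 4 Ctrl mice. C5ar1 and the monocyte and neutrophil markers are lowest there.

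Of the initiating proteases, Masp2, which cleaves C4 and C2 once a lectin has bound, fell and was partly higher again with the cells. Masp2 (transcript listed at 4:148602554-148604417 in mm10, plus strand) was at 4280, 3694, 3859 and 3694 in Ctrl, at 1616, 2358, 2122 and 1162 in Con A and at 3195, 3973, 2468 and 2609 in Con A + MSCs. The listed span is shorter than the 3229 distinct 100-base stretches of the Masp2 transcripts, so it holds only part of their sequence. If values belong to the listed transcript, they may not cover the whole protease. The Con A mice lay below all others. The fall was 2.21-fold (log2 change -1.15, SE 0.21, adjusted p = 0.000595) and the difference with the cells 1.72-fold (log2 change 0.78, SE 0.21, adjusted p = 0.0358), and against Ctrl the Con A + MSCs mice differed by -0.37 (95% interval -0.82 to 0.09). The difference between the Con A groups was 0.58 without Con A replicate 4 (adjusted p = 0.0708) and 0.65 without Con A + MSCs replicate 2 (adjusted p = 0.105), and its adjusted p was 0.0934 without Con A replicate 1, 0.0736 without Con A + MSCs replicate 1, 0.0681 without Con A + MSCs replicate 3 and 0.0664 with only 8 mice fitted.

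Neither of the other proteases was called. Masp1, which activates MASP-2, was at 402, 1114, 859 and 1254 in Ctrl, at 662, 598, 738 and 458 in Con A and at 434, 447, 400 and 678 in Con A + MSCs. Ctrl replicate 1 lay apart from its group, and without it the log2 change of Masp1 after Con A was -0.81 (adjusted p = 0.00799) in place of -0.46 (adjusted p = 0.216), while without Ctrl replicate 4 it was -0.27 (adjusted p = 0.492). C1ra, the C1r protease of the classical pathway, was at 3538, 6036, 4739 and 5246 in Ctrl and at 7341, 7126, 7126 and 4280 in Con A, with a log2 change of 0.40 (SE 0.22, adjusted p = 0.135). Its transcripts share 35.9% of their 100-base stretches with other genes, chiefly C1rb, so reads may have been split between them.

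**Figure D3:**
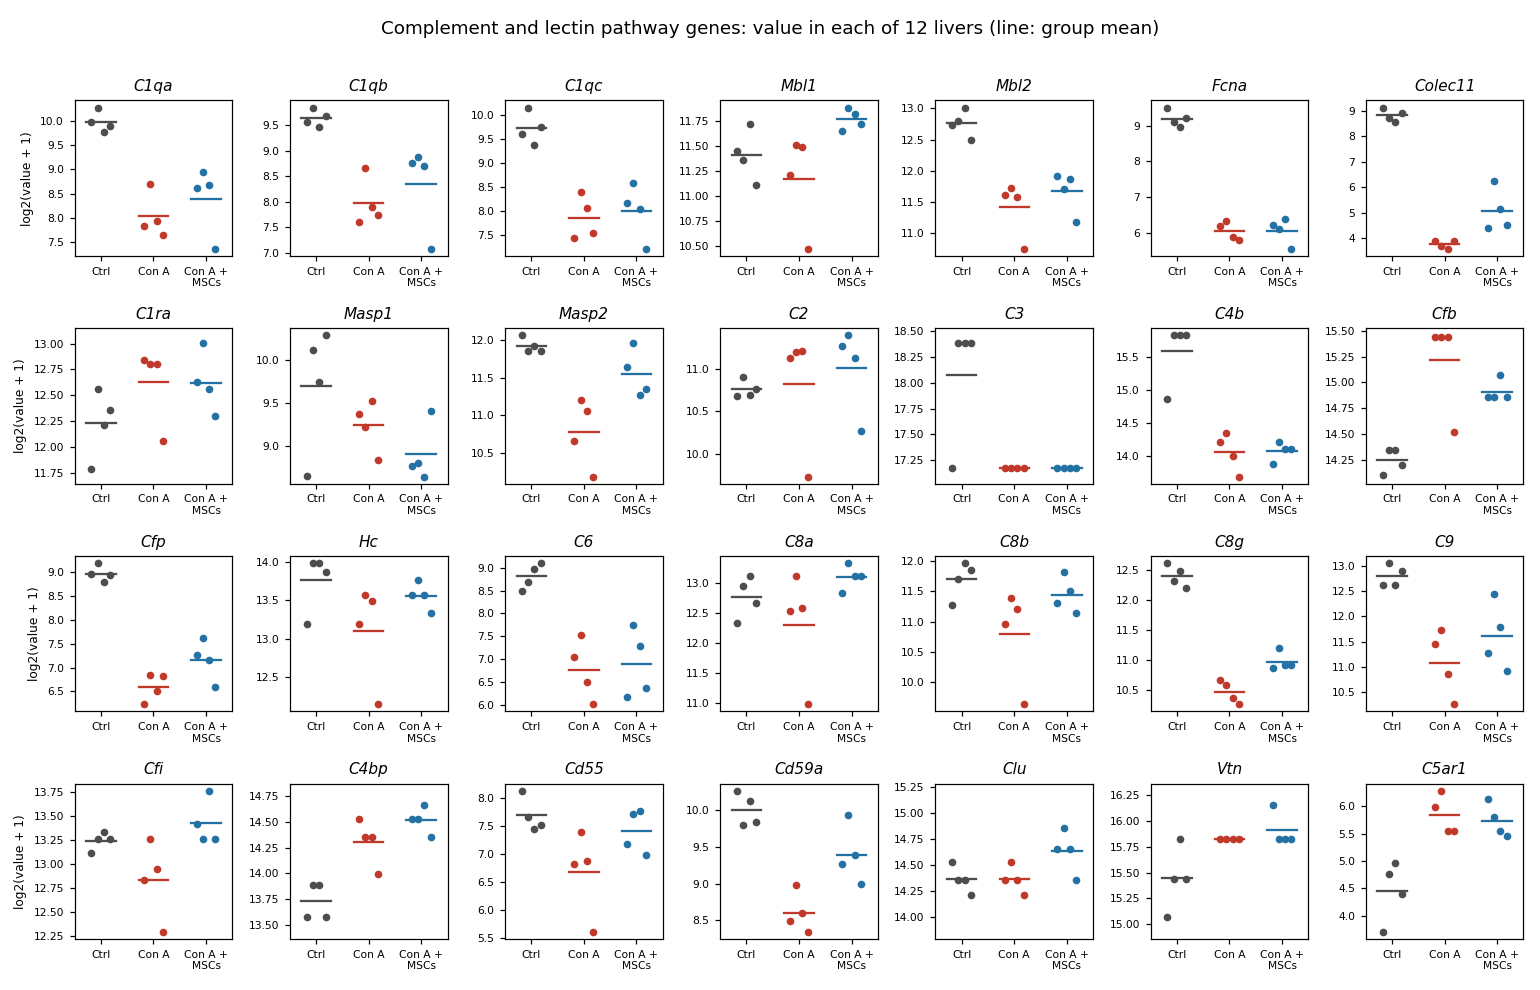
Value of each of the 28 genes in every mouse on the scale of log2(value + 1) (y axis, with its own range in each panel), for Ctrl, Con A and Con A + MSCs (points are mice, 4 per group, and the line is the group mean). Colec11, Masp2 and Cd59a are the 3 genes for which the Con A + MSCs mice were called higher than the Con A mice.

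Convertase components moved in both directions after Con A, with 3 of 5 lower and 1 higher, where 19.2% of all genes were called down and 19.5% up. Properdin (Cfp), which stabilises the C3 convertase of the alternative pathway and comes mainly from leukocytes, was at 498, 586, 442 and 492 in Ctrl, at 74, 114, 90 and 112 in Con A and at 152, 197, 142 and 96 in Con A + MSCs. It fell 5.18-fold (log2 change -2.37, SE 0.20, adjusted p = 2.3e-06). With the cells it differed from Con A by 0.56 on the log2 scale (adjusted p = 0.0765), by 0.75 without Con A + MSCs replicate 4 (adjusted p = 0.0251) and by 0.41 without Con A + MSCs replicate 2 (adjusted p = 0.203). Con A + MSCs mice stayed 3.51-fold below Ctrl.

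Factor B, the protease of the alternative convertase, rose instead. Cfb was at 17639, 20852, 20852 and 18904 in Ctrl, at 44484 in Con A replicates 1 to 3 and 23572 in replicate 4, and at 29649, 29649, 34334 and 29649 in Con A + MSCs. Every mouse of the Con A groups was above every Ctrl mouse. The rise was 1.94-fold after Con A (log2 change 0.96, SE 0.20, adjusted p = 0.00132) and 1.58-fold in Con A + MSCs versus Ctrl (log2 change 0.66, adjusted p = 0.0183). The latter missed the threshold without Con A + MSCs replicate 3 (log2 change 0.60, adjusted p = 0.0535). Between the Con A groups the log2 difference was -0.30 with a 95% interval of -0.73 to 0.12. C2, the classical counterpart of factor B and its neighbour on chromosome 17, was at 1635, 1920, 1656 and 1737 in Ctrl, at 2239, 2340, 2375 and 849 in Con A and at 2468, 2692, 2239 and 1228 in Con A + MSCs. In both Con A groups replicate 4 lay below all Ctrl mice and the other 3 above them, and C2 was not called (log2 change after Con A 0.06, SE 0.32). The transcripts of Cfb and C2 share 66.9% and 35.5% of their 100-base stretches with the read-through gene Gm20547, which is not in the table.

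C3, the central component, took only 2 values. It was at 147684 in Ctrl replicate 1 and at 341028 in the other 3 Ctrl mice, and at 147684 in all 8 mice of the Con A groups. It was called lower after Con A (log2 change -0.91, SE 0.25, adjusted p = 0.00853), but the 2 values are those of the top band and of the band next to it, which differ by a ratio of 2.31, so that the change is the move of 3 of the 4 Ctrl values by 1 step and its size is set by the bands. C4b, cleaved to form the classical convertase, was at 29636 in Ctrl replicate 1 and at 58038 in the other 3 Ctrl mice, at 18894, 20838, 16300 and 13184 in Con A and at 15057, 18894, 17632 and 17632 in Con A + MSCs. C4b fell 2.88-fold (log2 change -1.52, SE 0.22, adjusted p = 0.000123) across several bands, and the Con A groups differed by 0.02 (95% interval -0.47 to 0.50). Its transcripts share 15.2% of their 100-base stretches with C4a, for which the log2 change after Con A was -0.05 (adjusted p = 0.684).

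**Figure D4:**
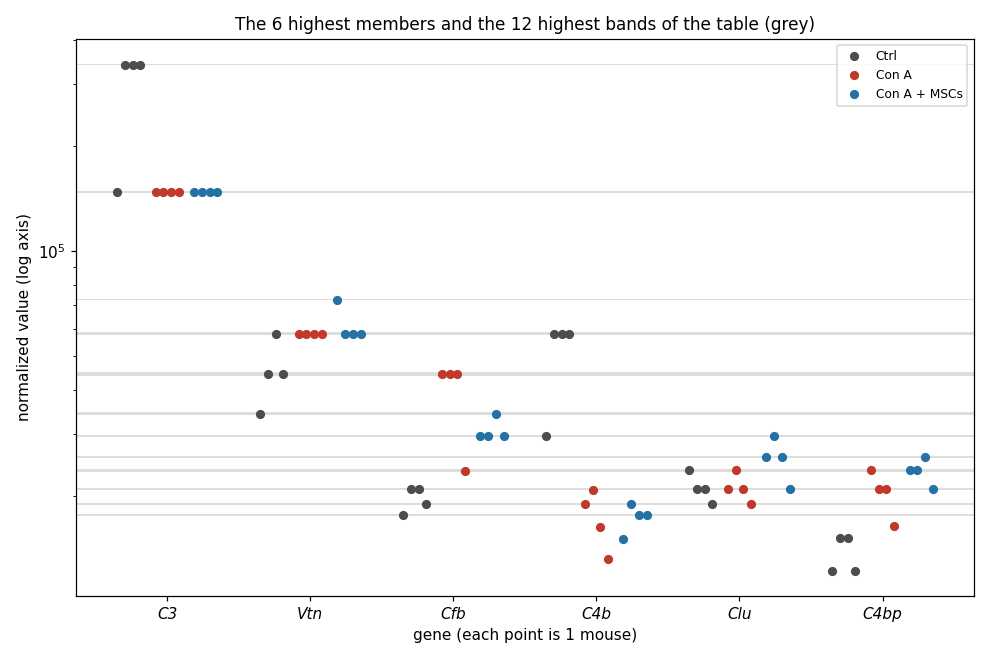
Value of the 6 genes of the list with the highest means (x axis) in each mouse (points, coloured by group) on a log axis, with the 12 highest bands of shared values in grey. C3 takes 2 values, 341028 in 3 Ctrl mice and 147684 in the other 9 mice, with all Con A and Con A + MSCs mice on the lower of the 2.

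In the terminal pathway 4 of 6 genes fell after Con A, where 19.2% of all genes were called down. Among the 4 were C8g and C8b of the 3 chains of C8. C8g, a lipocalin that joins the other C8 chains, was at 6305, 5128, 5726 and 4732 in Ctrl, at 1624, 1523, 1306 and 1220 in Con A and at 1850, 2354, 1917 and 1917 in Con A + MSCs. It fell 3.86-fold (log2 change -1.95, SE 0.13, adjusted p = 4.36e-07). All Con A + MSCs mice were above all Con A mice, by 1.42-fold (log2 change 0.51, SE 0.13, adjusted p = 0.0327), under the fold change that a call required. C8a, one of the pore-forming chains, was at 5118, 7908, 8862 and 6498 in Ctrl, at 5884, 8862, 6137 and 2006 in Con A and at 7315, 10305, 8862 and 8862 in Con A + MSCs. It was not called (log2 change after Con A -0.46, adjusted p = 0.287), and its log2 change with the cells was 0.80 (adjusted p = 0.133). That change was 1.07 without Con A replicate 2 (adjusted p = 0.0475) and 0.36 without Con A replicate 4 (adjusted p = 0.270). C8b, its neighbour on chromosome 4, was at 2485 to 3996 in Ctrl, 796 to 2678 in Con A and 2256 to 3608 in Con A + MSCs, overlapping in part. Its fall of 1.87-fold (log2 change -0.90, SE 0.32, adjusted p = 0.0287) rested on Con A replicate 4, without which it was -0.52, a fold under the threshold. The adjusted p was 0.0537 without Ctrl replicate 2, 0.0725 without Ctrl replicate 3, 0.0641 without Ctrl replicate 4 and 0.0542 when only 8 mice were fitted.

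C6 and C9, which add to the complex before and after C8, both fell. C6 was at 356, 410, 503 and 548 in Ctrl, at 131, 185, 90 and 64 in Con A and at 72, 214, 156 and 82 in Con A + MSCs, a fall of 4.09-fold (log2 change -2.03, SE 0.36, adjusted p = 0.000535). C9, the pore-forming last component, was at 6328, 8542, 6328 and 7624 in Ctrl, at 2792, 3406, 1844 and 1224 in Con A and at 2474, 5574, 3546 and 1925 in Con A + MSCs, a fall of 3.32-fold (log2 change -1.73, SE 0.34, adjusted p = 0.00101). Neither gene was called between the Con A groups, with log2 changes of 0.12 (95% interval -0.67 to 0.91) for C6 and 0.53 (95% interval -0.20 to 1.27) for C9. Hc, the mouse gene of C5, was at 9353, 16262, 16262 and 15018 in Ctrl, at 9353, 12175, 11534 and 4534 in Con A and at 12175, 13896, 12175 and 10305 in Con A + MSCs. Its change after Con A (-0.66, SE 0.28) had an adjusted p of 0.0646, and of 0.0254 without Ctrl replicate 1 (log2 change -0.85), 0.0337 without Con A replicate 2 (-0.82) and 0.0468 without Con A replicate 3 (-0.79). Without Con A replicate 4 it was -0.34 (adjusted p = 0.162). Hepatocyte markers, which bear on these secreted proteins, fell for 4 of 9 genes after Con A, with sums of 955101 to 1182642 in Ctrl, 689713 to 728210 in Con A and 714773 to 776474 in Con A + MSCs. Alb and Cps1 were tied at their band in all mice. Their part in the falls was not tested.

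Of the 6 regulators Cd59a and Cd55 fell after Con A, so that 33.3% were called against 38.8% of all genes (19.2% down and 19.5% up). The other 4 were not called, of which C4bp missed by its fold alone. Cd59a, whose protein keeps C9 from forming the pore on host cells, has its listed transcript at 2:104095801-104115354 (mm10, plus strand). It was at 1224, 888, 1108 and 910 in Ctrl, at 358, 503, 388 and 324 in Con A and at 614, 970, 668 and 507 in Con A + MSCs. The fall was 2.63-fold (log2 change -1.40, SE 0.20, adjusted p = 8.61e-05). With the cells Cd59a was 1.73-fold above Con A (log2 change 0.79, SE 0.20, adjusted p = 0.0296), with every Con A + MSCs mouse above every Con A mouse. Against Ctrl it was lower by 0.61 (adjusted p = 0.0251). The difference between the Con A groups was 0.61 without Con A + MSCs replicate 2 (adjusted p = 0.0837) and 0.70 without Con A replicate 4 (adjusted p = 0.0687), and its adjusted p was 0.0850 without Con A replicate 1, 0.0557 without Con A replicate 3, 0.0507 without Con A + MSCs replicate 1 and 0.0734 without Con A + MSCs replicate 3. The difference from Ctrl was lost without any of Ctrl replicates 1 and 3 and Con A + MSCs replicates 1, 3 and 4, with adjusted p-values of 0.0669, 0.0581, 0.066, 0.0539 and 0.0744.

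CD55 speeds the decay of the convertases. Cd55 was at 279, 202, 174 and 182 in Ctrl, at 113, 168, 116 and 48 in Con A and at 144, 210, 217 and 125 in Con A + MSCs. It fell 2.01-fold after Con A (log2 change -1.01, SE 0.32, adjusted p = 0.0182), but with an adjusted p of 0.0569 without Ctrl replicate 1. With the cells the log2 change was 0.73 (95% interval 0.03 to 1.43, adjusted p = 0.130), with 0.97 without Con A replicate 2 (adjusted p = 0.0488) and 0.38 without Con A replicate 4 (adjusted p = 0.311).

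C4bp, which binds C4b and helps factor I to cleave it, was at 12228, 15120, 15120 and 12228 in Ctrl, at 23644, 20910, 20910 and 16359 in Con A and at 23644, 23644, 25834 and 20910 in Con A + MSCs. All mice of the Con A groups were above all Ctrl mice. Its log2 change after Con A was 0.58 (SE 0.14, adjusted p = 0.00471), a fold of 1.49 just under the threshold, which it passed without Ctrl replicate 2 or 3 (0.63 each) or Con A replicate 4 (0.68). In Con A + MSCs versus Ctrl it was called higher, by 1.72-fold (log2 change 0.79, adjusted p = 0.00113). Factor I (Cfi) was at 8862 to 10305 in Ctrl, 5016 to 9819 in Con A and 9819 to 13896 in Con A + MSCs. Its log2 change with the cells was 0.59 (SE 0.19, adjusted p = 0.0538), with 0.73 without Con A replicate 2 (adjusted p = 0.0215) and 0.41 without Con A replicate 4 (adjusted p = 0.111).

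Clusterin (Clu) and vitronectin (Vtn) bind the terminal complex in plasma and keep it out of membranes. Clu took the same 4 values in Ctrl as in Con A, from 18948 to 23652, and lay at 20917 to 29712 in Con A + MSCs, a log2 difference of 0.27 (95% interval -0.03 to 0.57) from Con A. Vtn was at 34334, 44484, 58067 and 44484 in Ctrl, at 58067 in all 4 Con A mice and at 72700, 58067, 58067 and 58067 in Con A + MSCs. Neither was called after Con A (Vtn log2 change 0.38, adjusted p = 0.0667), and both lay in the banded range in all mice.

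C5ar1, the receptor through which C5a attracts neutrophils and monocytes, was the only receptor of the list in the table. It was at 12, 26, 30 and 20 in Ctrl, at 62, 77, 46 and 46 in Con A and at 69, 55, 46 and 43 in Con A + MSCs. Only 1 mouse of each Con A group and 0 Ctrl mice reached the 64 that the table required, so that C5ar1 is in the table only through the groups where it is high. With that limit, it was 2.63-fold higher after Con A (log2 change 1.39, SE 0.30, adjusted p = 0.00205), and the Con A groups overlapped, with a log2 difference of -0.11 (95% interval -0.77 to 0.56). Of the 8 monocyte and neutrophil markers 5 are likewise in the table only through the Con A groups, and the other 3 (Ccr2, Chil3 and Plac8) rose after Con A. The sums over all 8 were 368 to 523 in Ctrl, 2060 to 3253 in Con A and 2127 to 3585 in Con A + MSCs. Of 11 T and NK cell markers 4 were in the table, all of them only through the Con A groups, with sums of 31 to 66 in Ctrl, 480 to 955 in Con A and 506 to 828 in Con A + MSCs. Cd8a, the co-receptor of cytotoxic T cells, was listed at 0 in Ctrl replicate 1. None of 4 B cell markers was in the table. The part of these markers in the values of C5ar1 was not tested.

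Whether partners of 1 complex or family changed unequally was asked of 8 pairs by the log2 ratio within each mouse, with a two-sided exact permutation test of 4 against 4 mice, whose smallest p is 0.0286. Con A mice differed from Ctrl mice at that smallest p in 4 pairs. The ratio of Mbl1 to Mbl2 went from -1.35 ± 0.08 (SD, n = 4) to -0.25 ± 0.14, that of Cfb to C2 from 3.49 ± 0.11 to 4.40 ± 0.27, that of C8a to C8b from 1.06 ± 0.18 to 1.5 ± 0.18 and that of C8a to C8g from 0.35 ± 0.44 to 1.84 ± 0.80 (exact p = 0.0286 each, 0.0914 after Benjamini-Hochberg adjustment over 16 tests). None of the 16 tests passed after adjustment. If values belong to the listed transcripts, the ratios with Mbl1 and C8a rest on transcripts not annotated as protein-coding. That of Masp1 to Masp2 then rests on a short Masp2 transcript. For C1qa to C1qb the ratio was 0.33 ± 0.09 in Ctrl and 0.06 ± 0.13 in Con A (exact p = 0.0571, adjusted 0.131). With the cells, the ratio of C9 to C6 was 4.70 ± 0.27 against 4.29 ± 0.10 in Con A (exact p = 0.0286, adjusted 0.0914) and that of Masp1 to Masp2 -2.65 ± 0.52 against -1.53 ± 0.31 (exact p = 0.0571, adjusted 0.131).

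**Figure D5:**
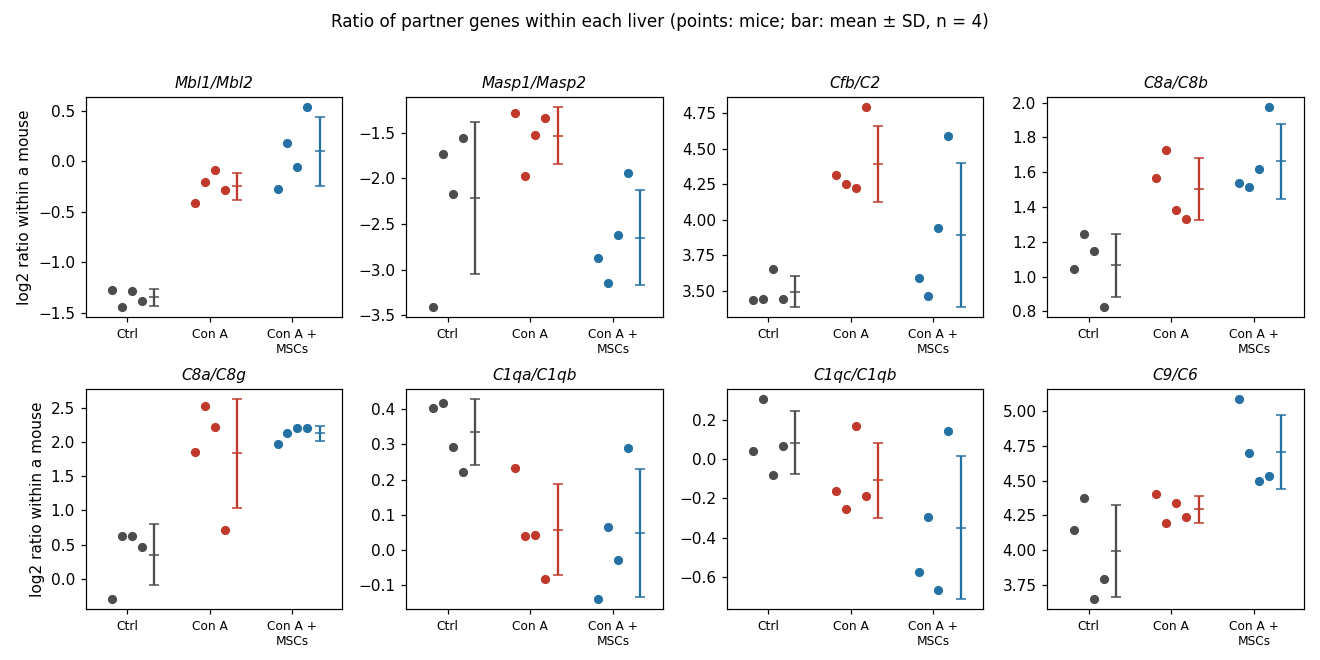
Log2 ratio of partner genes within each mouse (y axis, with its own range in each panel) for 8 pairs in Ctrl, Con A and Con A + MSCs (points are mice, bars are mean ± SD, n = 4). The Con A mice lie above all Ctrl mice for Mbl1/Mbl2, Cfb/C2, C8a/C8b and C8a/C8g.

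Con A + MSCs mice still differed from Ctrl mice in 16 of the 28 genes, 13 lower and 3 higher (26.7% of all genes were called in this comparison, 13.1% down and 13.6% up). The groups did not overlap for 14 of the 28 genes, against 37.9% of all genes. The genes lower were those lower after Con A except Masp2, Cd55 and C8b, whose log2 changes against Ctrl were -0.37, -0.28 and -0.26. The genes higher were Cfb, C5ar1 and C4bp. Fcna differed from Ctrl by a log2 change of -3.12, against -3.13 after Con A alone. The median log2 change of the 28 genes was -0.49, against 0.04 for all genes. This comparison shares its Ctrl mice with that of Con A versus Ctrl. Vtn missed the fold threshold (log2 change 0.46, adjusted p = 0.0405), which it passed without Ctrl replicate 3 (0.59), while without Ctrl replicate 1 it was 0.34 (adjusted p = 0.0614). Masp1 was not called (log2 change -0.80, adjusted p = 0.0537), but it was without Ctrl replicate 1 (-1.15, adjusted p = 0.00184), Con A replicate 4 (adjusted p = 0.046) or Con A + MSCs replicate 4 (-0.96, adjusted p = 0.0349), and it was -0.60 without Ctrl replicate 4 (adjusted p = 0.155).

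A further list of 35 complement genes had 23 in the table. After Con A 6 of them fell and 7 rose, or 56.5% called against 38.8% of all genes (19.2% down and 19.5% up), and the median log2 change was -0.03. Among the falls, Vsig4, the complement receptor of resident macrophages, went from a mean of 553 ± 73.2 (SD, n = 4) to 25.8 ± 12.2 (log2 change -4.54, SE 0.44, adjusted p = 5.26e-06). Colec10, the collectin that pairs with Colec11, went from 568 ± 80.7 to 108 ± 17.5 (log2 change -2.39, SE 0.15, adjusted p = 3.29e-07). Cd59b, the copy of Cd59a, was at 52.5 ± 19.5 in Ctrl and 8.25 ± 4.03 in Con A (log2 change -2.55, adjusted p = 0.000866). Both Vsig4 and Cd59b are in the table only through their Ctrl mice. Rises were seen for Cd93 (log2 change 1.99, adjusted p = 4.33e-06), a surface protein of myeloid and endothelial cells, and for Itgam (1.57, adjusted p = 0.000116), a chain of complement receptor 3. Calr, a chaperone that can bind C1q, rose by 1.08 (adjusted p = 0.00108). C1s1, named after its values were seen because C1s was not in the table, rose by 0.65 (adjusted p = 0.0276), a call lost without Ctrl replicate 1 or 3 or Con A replicate 1, 2 or 3 (adjusted p from 0.0514 to 0.0742).

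With the cells, 1 of these 23 genes was higher than in Con A and 0 were lower, against 8.58% of all genes called, with 7 at an unadjusted p below 0.05 in limma, where 34.6% of all genes had such a p. Of these 7, Cd93 was the 1 that was lower (log2 change -0.56). Vsig4, Colec10 and Itgam differed from Con A by 0.79, 0.11 and -0.08 on the log2 scale, none of them called. Against Ctrl 3 of the 23 genes were lower and 7 higher in Con A + MSCs, where 26.7% of all genes were called (13.1% down and 13.6% up). Of the 3 lower genes, Cd59b (log2 change -1.48, adjusted p = 0.0286) lost its call without Ctrl replicate 1 or 3 or Con A + MSCs replicate 1, 3 or 4, with adjusted p-values from 0.0559 to 0.0833.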

How the data were processed

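Per the labels, poly-A RNA of each liver was made into a library with a kit that does not mark strand and read as 150 bp pairs. The submitters' processing notes name Bowtie2 2.2.1, RSEM 1.2.18 and mm10, and the study names DESeq2. The authors deposited 1 whole-number score per row (a gene name with 1 transcript) and mouse. The table is named as counts, but from its values it was taken as normalised between mice, by a method not given in the sources used here. Every gene reached 64 in at least 2 mice.

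Values were fitted as log2(value + 1), which understates changes of low genes, for all 12 mice in 1 model without covariates by limma 3.58.1 (R 4.3.3, lmFit, eBayes with a trend), tested on simulated data. There 56.5% to 59% of log2 changes of 0.8 and 88% to 88.5% of those of 1.5 were called, so smaller true changes can be missed. The simulated errors were normal and independent, without bands or a floor. Exact tests were made in Python 3.11.15 (scipy 1.17.1, pandas 2.3.3 and numpy 2.4.6) and plots with matplotlib 3.10.9.

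The genes, lists and promoter letters were chosen with earlier results of these data known, and elements of 10 or more letters are not given. Every gene of the list is described, with all mice for those called after Con A with a fold above 2 or called with the cells, and for others where space allowed. Of the further complement genes, up to 8 with the largest called change after Con A and those called with the cells were to be named, and some genes that meet this rule are not reported here. Positions are those of the transcript that the deposited table lists, and read sharing was counted between GENCODE M21 transcripts. Alternatives were another pseudocount, a minimum mean, median centring, quantile normalisation, no trend, 8 mice only, an unadjusted p, a fold above 2, each mouse left out, and the replicate number as a block. The labels number the mice but give no litters or days.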

Additional observations from a re-analysis of the deposited data

Results flagged for a closer look

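In 84 groups of 4 mice (28 genes in 3 groups), distances and ranges were taken on the scale of log2(value + 1). The values printed here are untransformed. Ratios taken from them can differ, so that a flag may not hold on that scale, which was not tested. Chance alone puts about 1 group in 20 beyond Dixon's 95% critical value. Here 11 groups held a mouse whose distance to the nearest other mouse was a larger part of the range than that value allows. Of these, 4 were Con A replicate 4 and 3 were Ctrl replicate 1. Con A replicate 4 was lowest for Mbl2 (1724 against 3065 to 3378, a ratio of distance to range of 0.855), C1ra (4280 against 7126 to 7341, ratio 0.945), C2 (849 against 2239 to 2375, ratio 0.943) and Cfb (23572 against 44484 in the other 3 mice, ratio 1). Ctrl replicate 1 was lowest for C3 (147684 against 341028, ratio 1), C4b (29636 against 58038, ratio 1) and Hc (9353 against 15018 to 16262, ratio 0.856). In the Con A + MSCs group, replicate 4 was lowest for C1qb (134 against 416 to 468, ratio 0.906), replicate 2 was highest for C8g (2354 against 1850 to 1917, ratio 0.852), replicate 3 was highest for Cfb (34334 against 29649, ratio 1) and replicate 1 was highest for Vtn (72700 against 58067, ratio 1). The ratios of 1 for C3, C4b, Cfb and Vtn arise where the other 3 mice share 1 value of a band.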

How the results depend on the processing

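Depth is not known, so precision is limited by 4 mice per group. Of 1761 values of the 28 genes under the alternatives, 1671 kept their direction and side of the threshold, 40 lost and 26 gained a call, and 24 changed sign, of which none was called. Part of these values could not differ. All mice have the same median, so median centring repeats the main fit. An unadjusted p, a fold above 2 and leaving out a mouse of the third group all keep the log2 change. The number kept is therefore not a count of independent checks. After Con A versus Ctrl the count of falling genes was 15 to 17 when each mouse was left out, and the 2 rises became 1 with a mean value of at least 100 (C5ar1 is removed by that filter) and 1 with a fold above 2. The 3 rises in Con A + MSCs versus Con A became 1 with only 8 mice fitted, 7 at an unadjusted p, 1 with a fold above 2, 5 with the replicate block, and 0 to 7 when each mouse was left out. In Con A + MSCs versus Ctrl the 3 rises became 1 with a fold above 2. Of the further 23 complement genes, the 7 rises after Con A became 3 and the 7 in Con A + MSCs versus Ctrl became 4 with a fold above 2, and the 1 rise in Con A + MSCs versus Con A became 0 with 8 mice, 2 at an unadjusted p and 0 to 3 with each mouse left out. The replicate number as a block added Mbl1 and Cfi to the rises with the cells and Hc to the falls after Con A. Deviations from group means correlated by -0.118 to 0.168 between same-numbered mice of Ctrl and either Con A group. Between the 2 Con A groups they correlated by 0.375 for replicate 2 and 0.244 for replicate 4. For replicates 1 and 3 the values were -0.043 and -0.087. Different-numbered mice were not compared, so whether the numbers pair the mice was not settled. The main fit took no pairing.

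Changes near 0, none of them called, turned sign. With each mouse left out the log2 changes in Con A + MSCs versus Con A ran from -0.057 to 0.40 for C1qc, -0.091 to 0.18 for Fcna (-0.0061 after quantile normalisation), -0.19 to 0.10 for C1ra, -0.16 to 0.45 for C2, -0.11 to 0.11 for C4b, -0.16 to 0.38 for C6, -0.24 to 0.042 for C5ar1, -0.014 to 0.20 for Colec10 and -0.27 to 0.061 for Itgam. After Con A they ran from -0.076 to 0.42 for C2 and from -0.11 to 0.0059 for C4a. The cause of these changes was not tested. DESeq2 was not run, since the values, though named as counts, have the same median and largest value in every mouse and were not taken as raw counts.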
